A study of Mus musculus with 61 samples.

Results

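The genes described here make, sense, move and export cholesterol in mouse adipose tissue. They are 28 genes of the 21169 in the deposited counts table, taken by symbol from a list of cholesterol synthesis, transport, storage and efflux genes, and all 28 were among the 18603 genes that could be tested. Bulk RNA was sequenced from 61 adipose libraries of the 8 inbred strains that founded the Diversity Outbred mouse population, all fed a high-fat, high-sugar diet with 45 percent fat per the labels. There were 7 libraries in each of 129, AJ and Cast, and 8 in each of WSB, PWK, NZO, NOD and B6. No other treatment, genotype or control diet separates them, and the labels do not give the fat depot, sex or age of the mice. They number the libraries within a strain and say nothing further of how the animals were housed or sampled, so the p-values measure the spread between these samples.

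Cholesterol is built from acetyl-CoA through mevalonate to farnesyl diphosphate, joined to squalene, and then folded and trimmed into the sterol. The transcription factor made by Srebf2 drives the genes of this route. Its escort, the product of Scap, carries it out of the endoplasmic reticulum when sterol is scarce, and the products of Insig1 and Insig2 hold it back when sterol is plentiful. Fat cells make little cholesterol of their own compared with liver and hold much of it free around the lipid droplet, while macrophages store it as ester and export it through Abca1 and Abcg1, targets of the oxysterol-sensing LXR receptors.

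Promoter sequences from RefSeq on GRCm38.p6 were matched by symbol to 22 of the 28 genes, and the 250 bases before each listed start were searched on both strands. Fdps, Fdft1, Sqle, Stard4, Npc1 and Abcg1 had no entry. The sterol response motif TCACNCCAC was present in 1 of the 22, Hmgcs1, 137 bases before its start (4.55% of these genes, against 1.22% of 27025 genes in the table). The looser motif TCANNCCA, which contains the first, was present in Hmgcs1, Msmo1 and Srebf2, or 13.6% against 15% of all genes. CCAAT, the box bound by factor NF-Y and read as ATTGG on the other strand, was present in 19 of the 22 (86.4%, against 37.5% of all genes and 39.5% of protein-coding genes). Each of the 9 sterol step genes with an entry held a CCAAT. Genes with more than 1 listed start were counted when any of their windows held the motif, and CCAAT was present in 1 of 3 windows of Insig2, 1 of 3 of Dhcr7 and 1 of 2 of Pmvk. A match is a run of letters and not a mapped binding site.

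Sequences of 4 of these windows are shown for genes that Cast placed apart in the comparisons that follow. Hmgcs1 carries both motifs, Sc5d had the lowest fold change in Cast among synthesis genes, Insig2 rose in Cast, and Abca1 rose in Cast and holds neither motif. Capitals mark a match to TCACNCCAC, CCAAT or ATTGG, and each window is written 5′ to 3′ on the strand of its gene and ends at the base before the RefSeq start. The Hmgcs1 window is chr13:119690101-119690350 on the plus strand, the Sc5d window chr9:42264301-42264550 on the minus strand, the Insig2 window, the one of its 3 that holds a CCAAT, chr1:121332590-121332839 on the minus strand, and the Abca1 window chr4:53159896-53160145 on the minus strand.
Hmgcs1: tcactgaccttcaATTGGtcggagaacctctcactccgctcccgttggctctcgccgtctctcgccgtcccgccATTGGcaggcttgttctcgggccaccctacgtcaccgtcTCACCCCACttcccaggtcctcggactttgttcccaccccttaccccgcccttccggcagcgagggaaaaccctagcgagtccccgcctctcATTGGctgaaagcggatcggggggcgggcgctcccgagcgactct
Sc5d: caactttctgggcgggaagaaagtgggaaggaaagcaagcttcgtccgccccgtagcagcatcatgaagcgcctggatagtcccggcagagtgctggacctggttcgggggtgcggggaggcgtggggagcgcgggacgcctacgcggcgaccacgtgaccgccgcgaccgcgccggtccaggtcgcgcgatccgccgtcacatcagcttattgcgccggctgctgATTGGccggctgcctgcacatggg
Insig2: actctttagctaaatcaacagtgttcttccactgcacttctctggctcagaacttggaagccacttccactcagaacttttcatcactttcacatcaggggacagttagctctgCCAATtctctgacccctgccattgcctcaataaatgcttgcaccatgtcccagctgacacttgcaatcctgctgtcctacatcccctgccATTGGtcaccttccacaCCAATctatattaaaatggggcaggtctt
Abca1: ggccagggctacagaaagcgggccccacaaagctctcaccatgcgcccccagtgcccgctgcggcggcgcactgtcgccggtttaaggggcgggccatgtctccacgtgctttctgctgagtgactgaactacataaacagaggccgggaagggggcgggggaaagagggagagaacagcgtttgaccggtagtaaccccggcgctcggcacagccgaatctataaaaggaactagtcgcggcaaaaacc

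Total counts ran from 19851580 to 61277576 per library, with a median of 38657683. As a check of the tissue label, adipocyte transcripts (8 of 8 markers found, none at 0 in any library) summed to between 12335 and 35451 CPM (counts scaled to library size). Sums of liver, skeletal muscle or genital duct markers passed set limits in 13 libraries, which are called marker-rich here. The most alike libraries of a strain differed by a chi-square of 18.5 per gene, far more than sampling noise. The genes Acat2, Idi1, Fdps, Fdft1, Tm7sf2, Scap and Npc1 had fractional estimates in more than 50% of libraries, a sign that their reads were divided among similar genes, which makes the values uncertain.

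All 28 genes differed among the 8 strains in the edgeR quasi-likelihood F-test at a Benjamini-Hochberg adjusted p under 0.05, the rule used for every call here, but so did 89.9% of all genes tested. With the replicate number as a block Sqle did not pass (adjusted p = 0.0768), and without the marker-rich libraries neither did Sqle (0.159) nor Pmvk (0.138). With a macrophage marker sum as a covariate, a fit described below, Sqle (0.0577), Pmvk (0.0832) and Acat2 (0.0869) did not pass. Strain accounted for a median of 50.1% of the variance in log2 CPM of the 28 genes, against 48.7% for all genes. The share varied with role. The 4 transport and storage genes had 64.9% to 83.4% of their variance between strains, the 7 mevalonate genes a median of 39.2% and the 11 sterol step genes a median of 51.1%. Stard4, which carries sterol between membranes inside the cell, had the highest share at 83.4%, and Sqle, which adds oxygen to squalene, the lowest at 23.0%. Among the 28 pairs of strains, B6 and NOD differed in 1 of the 28 genes (10.3% of all genes) and Cast and NZO in 21 (60.5% of all genes).

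**Figure D1:**
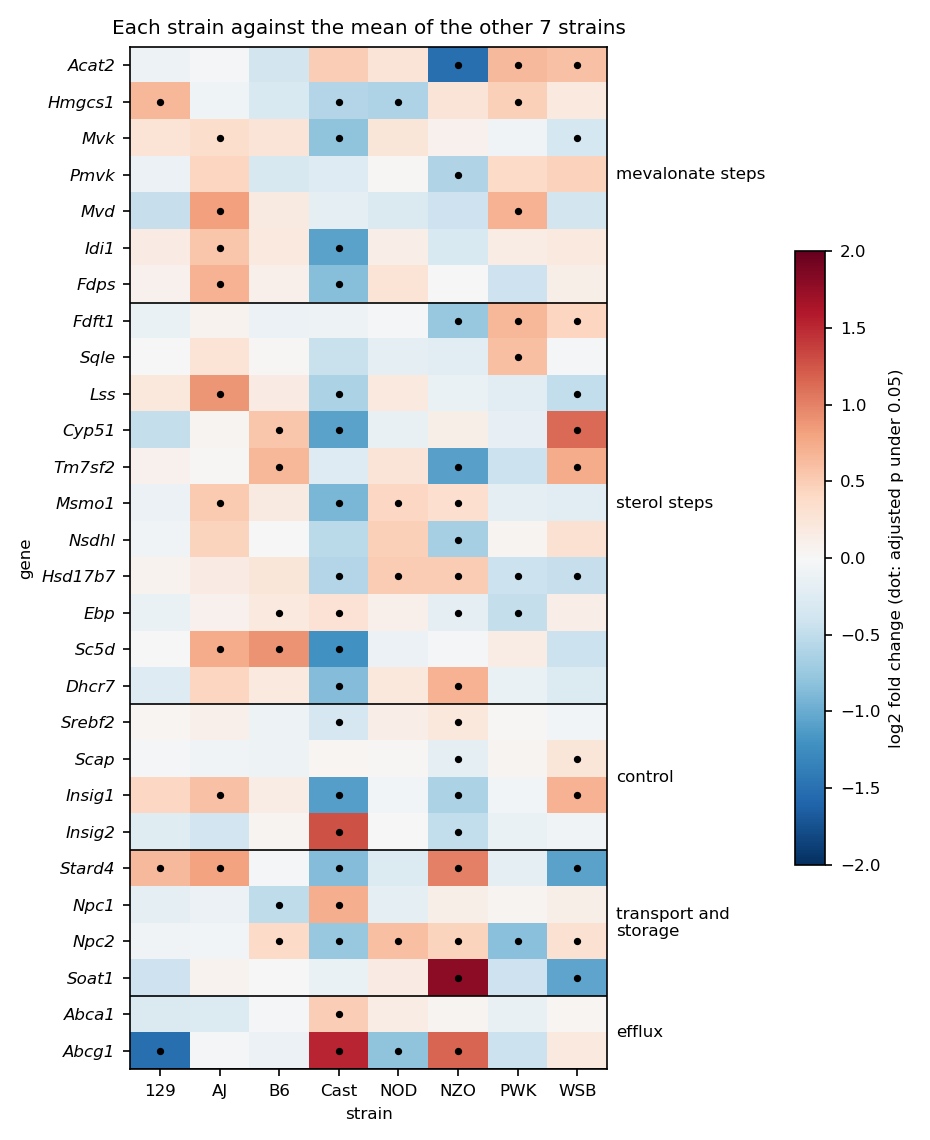
Log2 fold change of each of the 28 genes (rows, by role) in each strain (columns) against the mean of the other 7 strains; red is higher, blue is lower, and a dot marks an adjusted p under 0.05 in edgeR. The Cast column is blue through 10 dotted synthesis genes and red at both efflux genes, and the NZO column is deepest red at Soat1 and deepest blue at Acat2.

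Each strain was compared with the unweighted mean of the other 7, and the result is written as log2 fold change ± standard error with the adjusted p of edgeR over all genes tested. These 8 comparisons share libraries, so a strain far from the rest shifts the other 7. Among the 18 synthesis genes (mevalonate and sterol steps), the median log2 fold change was −0.59 in Cast and 0.39 in AJ, and it lay between −0.16 and 0.18 in the other 6 strains. The median over all genes tested lay between −0.02 and 0.03 in each of the 8 comparisons.

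Cast had low levels of synthesis transcripts and high levels of the efflux transporters. Of the 28 genes, 14 were lower (50%, against 26.6% of all genes tested) and 5 were higher (17.9%, against 29.6%), so 19 passed against 56.2% of all genes. The lower genes included 10 of the 18 synthesis genes, and the higher ones both efflux genes. The bulk data cannot tell fewer cells of a type from less RNA per cell.

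The synthesis genes lowest in Cast act at steps along the whole route. Sc5d, which sets a double bond in the sterol ring, had 17.2, 22.8 and 58 CPM as its lowest, median and highest library in Cast, against strain medians of 43.7 to 134 CPM elsewhere (−1.20 ± 0.22, adjusted p = 6.53e-06, 7 of 7 libraries below the median of the others). Its Cast libraries fell in 2 levels, 4 at 17.2 to 22.8 CPM and 3 at 49.7 to 58 CPM, and the upper level overlapped other strains. Cyp51, which removes a methyl group from lanosterol, had 11.3, 20.03 and 37.9 CPM (−1.08 ± 0.23). Idi1, which isomerises the isoprene unit, had 11.6, 27.8 and 52.3 CPM (−1.07 ± 0.24), and Msmo1, a sterol methyl oxidase, had 5.42, 14.1 and 22.4 CPM (−0.92 ± 0.17). Cast was also lower in Dhcr7, Fdps, Mvk, Lss, Hmgcs1 and Hsd17b7, by 0.87 to 0.58 on the log2 scale. One synthesis gene went the other way, the sterol isomerase gene Ebp (0.29 ± 0.07, adjusted p = 0.000651).

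Control genes in Cast moved in both directions. Insig1, itself a target of the Srebf2 product, had 64.9, 227 and 402 CPM in Cast against strain medians of 298 to 656 CPM elsewhere (−1.10 ± 0.22, adjusted p = 3.52e-05, 7 of 7 libraries). Srebf2 was lower by a smaller amount (−0.33 ± 0.08, adjusted p = 0.000294, 7 of 7 libraries). Insig2, the second retention protein, was higher, with 61.7, 81.3 and 413 CPM against strain medians of 49.4 to 69.3 CPM (1.27 ± 0.14, adjusted p = 3.44e-11). All 7 Cast libraries lay above the median of the others, but replicate 1 held the 413 CPM, replicate 6 174 CPM and the other 5 libraries 61.7 to 114 CPM. Scap did not pass in Cast.

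Efflux and lysosomal transport genes made up most of what was higher in Cast. Abcg1, which exports cholesterol to HDL, had 57.5, 119 and 435 CPM in Cast (1.53 ± 0.18, adjusted p = 3.4e-10, 7 of 7 libraries above the median of the others). Abca1, which exports it to lipid-poor apolipoprotein, had 276, 413 and 927 CPM (0.49 ± 0.12, adjusted p = 0.000371), with 4 of 7 libraries above the median of the others and the lower ones inside the range of other strains. Npc1, which lifts cholesterol out of the lysosome membrane, had 83.3, 106 and 179 CPM (0.73 ± 0.08, adjusted p = 9.67e-11), and all 7 libraries lay above the median of the others. Its partner in the lysosome lumen, Npc2, was lower (−0.76 ± 0.14, adjusted p = 3.48e-06), as was Stard4 (−0.87 ± 0.13, adjusted p = 1.05e-07).

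Single Cast libraries set part of these values. Replicates 5 and 6 had the lowest adipocyte marker sums of the strain (13673 and 17238 CPM, against 23071 to 34095 CPM in the other 5), the highest macrophage sums (1176 and 944 CPM, against 359 to 493 CPM) and the highest Abcg1 (215 and 435 CPM). With the macrophage sum as a covariate, a fit described below, 56.1% of all genes were called in Cast, against 56.2% without it. That share describes all genes, and the part of macrophage transcripts in the 28 genes in Cast cannot be read from it. The part of the adipocyte markers in the result was not tested. Without both libraries Cast had 15 of the 28 genes called, 10 lower and 5 higher, against 48.2% of all genes in that fit, and Abcg1 came to 0.80. Ebp (adjusted p = 0.246), Hmgcs1 (0.268), Fdps (0.0839), Lss (0.129) and Dhcr7 (0.098) then did not pass. Without replicate 1, 19 genes were called, against 51.9% of all genes, and Hmgcs1 did not pass (adjusted p = 0.0541). Insig2 then came to 0.72 (adjusted p = 2.44e-08) and Abca1 to 0.27 (0.0428), both still called as higher.

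**Figure D2:**
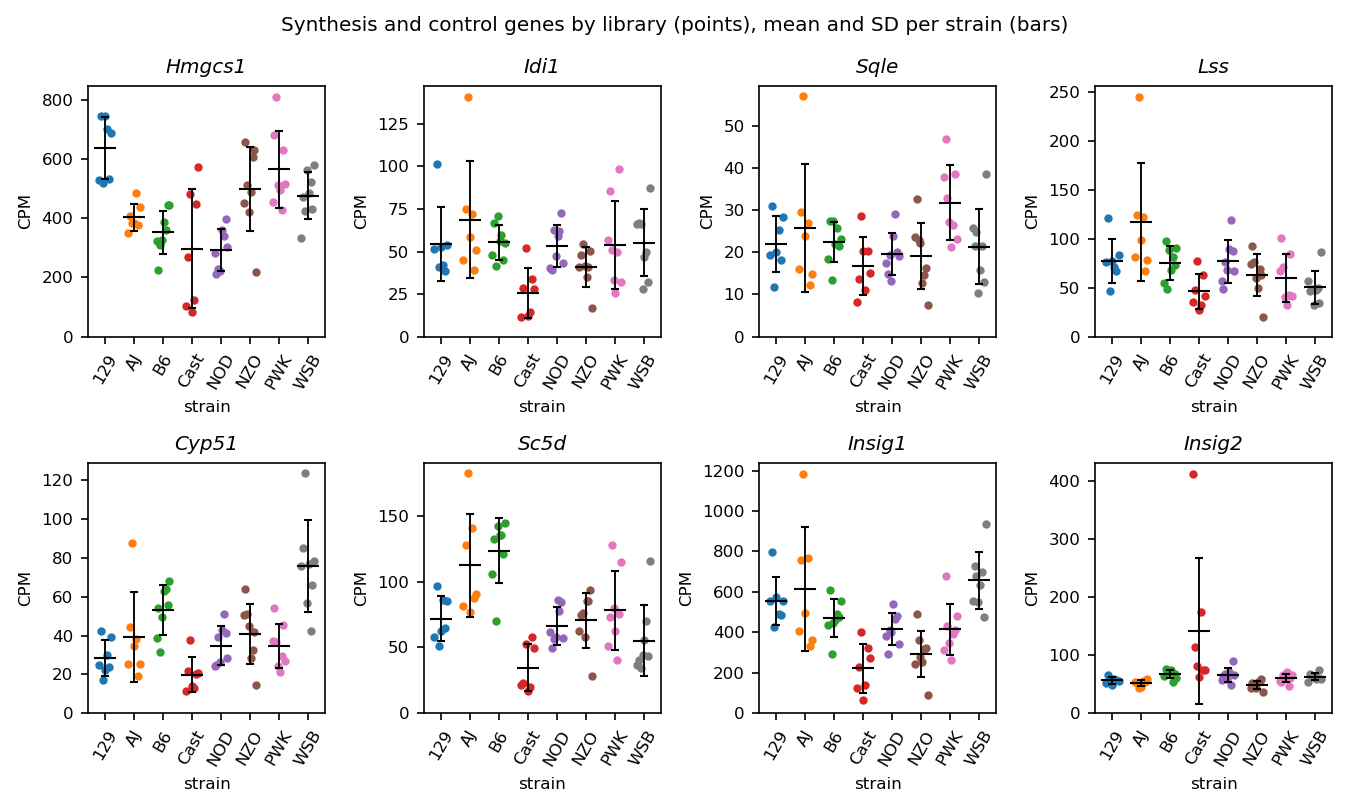
CPM (vertical axis, linear, from 0) of 8 synthesis and control genes by strain, with 1 point per library and a bar for the mean and SD. Cast libraries lie low in Sc5d, Idi1, Cyp51 and Insig1, 1 Cast library stands at 413 CPM of Insig2, and 1 AJ library stands highest in Lss (245 CPM) and Insig1 (1184 CPM).

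In NZO, an obese strain, 3 of the 4 transport and storage genes were higher. Soat1 lay farthest upward of the 28 genes and Acat2 farthest downward. Of the 28 genes, 8 were higher (28.6%, against 27.2% of all genes) and 9 were lower (32.1%, against 26.6%), and the 17 that passed compare with 53.9% of all genes. Soat1, which esterifies cholesterol for storage and is prominent in macrophages, had 53.5, 73.8 and 151 CPM in NZO, against strain medians of 15.3 to 31.5 CPM (1.78 ± 0.17, adjusted p = 5.04e-13, 8 of 8 libraries). One library outside NZO, B6 replicate 6 at 75.5 CPM, and NOD replicate 6 at 61.5 CPM reached the NZO range. Stard4 had 25.4, 34.2 and 41.9 CPM (1.01 ± 0.10, adjusted p = 3.74e-12, 8 of 8 libraries). That range overlaps those of 129 and AJ, and the highest B6 library (26.0 CPM) lies inside it. Abcg1 had 92, 123 and 167 CPM (1.16 ± 0.18, adjusted p = 2.01e-07, 8 of 8 libraries).

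Synthesis genes were divided in NZO. Dhcr7, which makes the last reduction to cholesterol, and Hsd17b7, a sterol ketone reductase, were higher (0.70 ± 0.22, adjusted p = 0.00713, and 0.51 ± 0.13, adjusted p = 0.00113), and so was Msmo1. Dhcr7 had 47.1 to 70.3 CPM in NZO replicates 1 to 4 and 11.9 to 34.3 CPM in replicates 5 to 8. Strain medians elsewhere were 15.8 to 30.7 CPM. Replicates 1 to 4 also held 479 to 744 CPM of Xist (described below), and replicates 5 to 8 at most 2.41 CPM. Acat2, the cytosolic thiolase that joins acetyl-CoA units, had 35.4, 48.7 and 62.3 CPM in NZO against strain medians of 85.6 to 190 CPM (−1.50 ± 0.26, adjusted p = 2.4e-06, 8 of 8 libraries). Also lower were Tm7sf2 (−1.09 ± 0.23), a sterol reductase, the squalene synthase gene Fdft1 (−0.76 ± 0.13), the sterol dehydrogenase gene Nsdhl (−0.67 ± 0.25), Pmvk (−0.60 ± 0.23) and Ebp (−0.19 ± 0.07). Of the control genes Insig1 (−0.63 ± 0.20), Insig2 (−0.49 ± 0.15) and Scap (−0.18 ± 0.04) were lower and Srebf2 was higher (0.21 ± 0.07). Without NZO replicate 8, which was low in many of these genes, Nsdhl (adjusted p = 0.08), Pmvk (0.0791) and Ebp (0.082) did not pass and 14 genes were called, against 50.7% of all genes.

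Macrophage transcripts moved with strain in the same libraries. The sum of 8 macrophage markers (8 of 8 found, none at 0) ran from 1370 to 4022 CPM in NZO and from 257 to 1720 CPM in the other strains, with the 1720 CPM in B6 replicate 6. Markers of lipid-associated macrophages (7 of 7 found, 1 at 0 in some library) summed to between 457 and 3218 CPM in NZO and between 18.9 and 1150 CPM elsewhere. The adipocyte sum in NZO had a median of 20176 CPM, against strain medians of 24671 to 30188 CPM. With the macrophage sum as a covariate, a fit added after the data were seen, NZO had 6 of the 28 genes called in place of 17 (5 higher, 1 lower), and the share of all genes called fell from 53.9% to 27.6%. In that fit Soat1 came to −0.09 (adjusted p = 0.767), Abcg1 to −0.27 (0.45), Acat2 to 0.34 (0.45) and Insig1 to 0.35 (0.431). Srebf2, higher in NZO without the covariate, was called as lower with it, at −0.26 (adjusted p = 0.0458). Stard4 was still called as higher in NZO in that fit, at 0.57 (adjusted p = 0.016). Since nearly the whole upper range of the marker sum lies in NZO, strain and macrophage transcripts cannot be told apart for these genes.

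**Figure D3:**
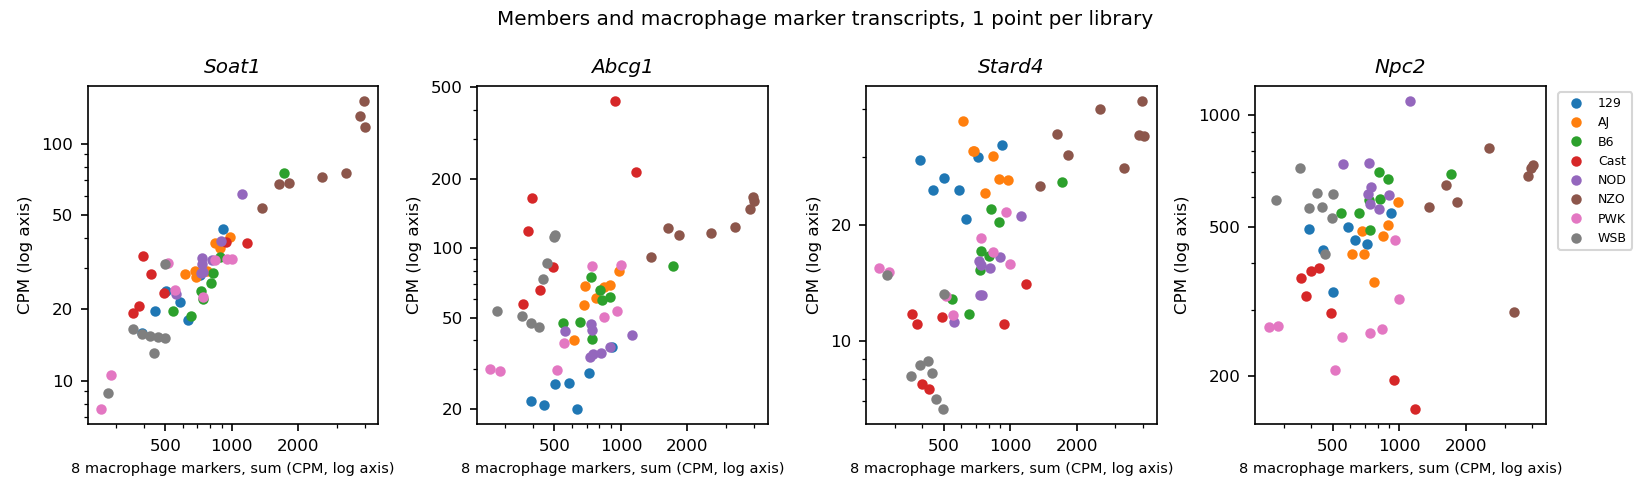
CPM of Soat1, Abcg1, Stard4 and Npc2 (vertical, log axis) against the summed CPM of 8 macrophage markers (horizontal, log axis), 1 point per library, coloured by strain. NZO libraries lie at 1370 to 4022 CPM of the marker sum and at 53.5 to 151 CPM of Soat1, while Abcg1 has 2 Cast libraries, at 215 and 435 CPM, above every NZO library.

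AJ had high levels of synthesis transcripts. Of the 28 genes, 9 passed in AJ and each was higher (32.1%, against 13.4% of all genes that were higher and 23.0% in either direction). Lss, which closes the sterol rings, had 67.5, 98.7 and 245 CPM (0.89 ± 0.19, adjusted p = 0.000215, 7 of 7 libraries above the median of the others). Sc5d had 76.6, 90.5 and 182 CPM (0.74 ± 0.19, adjusted p = 0.00206, 7 of 7 libraries), and Stard4 had 24.3, 30.3 and 37.2 CPM (0.80 ± 0.11, adjusted p = 1.23e-07, 7 of 7 libraries). The mevalonate decarboxylase gene Mvd (0.82 ± 0.24, adjusted p = 0.00974, 4 of 7 libraries) and the farnesyl diphosphate synthase gene Fdps (0.70 ± 0.22, adjusted p = 0.013, 5 of 7 libraries) overlapped the other strains in part. Insig1, Idi1, Msmo1 and Mvk were the other 4, and Insig2 had the lowest value, −0.39 ± 0.16, which did not pass.

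Much of the AJ result lay in replicate 3. That library held 245 CPM of Lss, 141 CPM of Idi1, 57 CPM of Sqle and 1184 CPM of Insig1, the highest of the 61 libraries in each, and it was marker-rich, with 1157 CPM of skeletal muscle transcripts against 29.4 to 68.2 CPM in 5 of the other AJ libraries and 2312 CPM in replicate 4. Without replicate 3, the genes called in AJ were 3, namely Lss, Sc5d and Stard4, against 21.2% of all genes. Mvd then came to 0.39 (adjusted p = 0.273) and Fdps to 0.35 (0.267). Without all 13 marker-rich libraries 4 genes were called in AJ, against 13.4% of all genes.

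WSB and PWK are wild-derived, as Cast is, and both stood above Cast in many of these genes. In the tests of single pairs, 13 of the 28 genes were lower in Cast than in WSB (20.5% of all genes) and 11 were lower than in PWK (23.0% of all genes). WSB had 7 genes higher (25%, against 25.6% of all genes) and 5 lower (17.9%, against 23.7%), with 49.3% of all genes called in either direction. Cyp51 had 42.4, 76.3 and 124 CPM in WSB against strain medians of 20.03 to 55.2 CPM (1.13 ± 0.18, adjusted p = 5.03e-07, 8 of 8 libraries), so Cyp51 was highest in WSB and lowest in Cast. Tm7sf2 (0.75 ± 0.20), Insig1 (0.70 ± 0.18), Acat2 (0.58 ± 0.22) and Fdft1 (0.42 ± 0.12) were also higher, and Npc2 and Scap made up the 7. Acat2 was uneven within WSB, with 199 to 262 CPM in replicates 1, 3, 4 and 9 and 76.9 to 134 CPM in replicates 5 to 8. The former held 314 to 405 CPM of Xist and the latter at most 3.77 CPM. Stard4 had 6.69, 8.48 and 14.9 CPM in WSB (−1.07 ± 0.13, adjusted p = 4.28e-10, 8 of 8 libraries), and Soat1 8.9, 15.3 and 30.9 CPM (−1.06 ± 0.22, adjusted p = 6.69e-05, 7 of 8 libraries). Lss (−0.50 ± 0.20), Hsd17b7 (−0.47 ± 0.15) and Mvk (−0.35 ± 0.12) were lower. WSB libraries held 276 to 501 CPM of macrophage markers, and with that sum as a covariate Acat2 came to −0.22 (adjusted p = 0.44), Tm7sf2 to 0.18 (0.57), Insig1 to 0.25 (0.369), Fdft1 to 0.05 (0.779) and Soat1 to −0.15 (0.395), none of which passed. In that fit the share of all genes called in WSB also fell, from 49.3% to 32.9%.

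PWK had 5 genes higher (17.9%, against 24.6% of all genes) and 3 lower (10.7%, against 19.0%), with 43.6% of all genes called in either direction. Higher were Mvd (0.70 ± 0.23), Fdft1 (0.66 ± 0.12), Acat2 (0.64 ± 0.22), Sqle (0.61 ± 0.19) and Hmgcs1 (0.47 ± 0.17), which makes HMG-CoA. Acat2 was uneven within PWK, with 167 to 312 CPM in replicates 1, 2, 6 and 7 and 68.7 to 113 CPM in replicates 3, 4, 5 and 9. The former held 394 to 608 CPM of Xist and the latter at most 6.08 CPM. The Acat2 call in PWK held with Xist as a covariate. Sqle had 21.3, 30.1 and 46.9 CPM in PWK and strain medians of 15.1 to 24.0 CPM elsewhere, and PWK was the one strain in which it passed (adjusted p = 0.00687, 8 of 8 libraries). Npc2 had 208, 268 and 461 CPM (−0.84 ± 0.13, adjusted p = 2.86e-07, 8 of 8 libraries), and Ebp 19.4, 24.0 and 31.7 CPM (−0.48 ± 0.07, adjusted p = 5e-07, 8 of 8 libraries). Hsd17b7 was the third lower gene (−0.44 ± 0.15). Without the marker-rich libraries, 3 of them in PWK, Acat2 (0.33, adjusted p = 0.316), Sqle (0.55, 0.0523) and Hmgcs1 (0.43, 0.157) did not pass.

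Strains B6, NOD and 129 had fewer calls. In B6, 5 genes were higher (17.9%, against 14.6% of all genes) and 1 was lower (3.57%, against 11.7%), with 26.3% of all genes called in either direction. Sc5d had 70.3, 134 and 145 CPM in B6 (0.90 ± 0.17, adjusted p = 6.44e-05, 8 of 8 libraries), and Tm7sf2 (0.67 ± 0.20), Cyp51 (0.55 ± 0.19), Npc2 (0.38 ± 0.12) and Ebp (0.19 ± 0.07) were higher as well. Npc1 had 46.0, 52.0 and 67.9 CPM, the lowest of any strain (−0.51 ± 0.09, adjusted p = 6.12e-06, 8 of 8 libraries).

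NOD had 3 genes higher (10.7%, against 14.7% of all genes) and 2 lower (7.14%, against 11.8%), with 26.5% of all genes called in either direction. Npc2 had 558, 626 and 1085 CPM in NOD (0.61 ± 0.11, adjusted p = 3.67e-05, 8 of 8 libraries), with Hsd17b7 (0.50 ± 0.14) and Msmo1 (0.41 ± 0.14) beside it. Abcg1 (−0.80 ± 0.21, adjusted p = 0.00308) and Hmgcs1 (−0.61 ± 0.19, adjusted p = 0.011) were lower in 8 of 8 libraries each.

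In 129, 2 genes were higher (7.14%, against 10.8% of all genes) and 1 was lower (3.57%, against 7.78%), with 18.6% of all genes called in either direction. Abcg1 had 20.1, 25.7 and 37.4 CPM in 129 (−1.51 ± 0.24, adjusted p = 1.87e-06, 7 of 7 libraries). Hmgcs1 had 518, 687 and 743 CPM (0.67 ± 0.18, adjusted p = 0.00447, 7 of 7 libraries) and Stard4 20.8, 26.5 and 32.3 CPM (0.65 ± 0.11, adjusted p = 1.64e-05, 7 of 7 libraries). Without the marker-rich libraries, 3 of them in 129, Hmgcs1 did not pass (0.69, adjusted p = 0.0592). These 3, replicates 6, 7 and 9, also held 0.264 to 4.44 CPM of Xist, against 418 to 581 CPM in the 129 libraries kept.

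Across strains, Hmgcs1 of the mevalonate steps ran from 293 ± 69.6 CPM in NOD (SD, n = 8) and 297 ± 202 CPM in Cast (n = 7) through B6 (352 ± 73.6), AJ (403 ± 44.9), WSB (476 ± 80.5), NZO (498 ± 142) and PWK (565 ± 130) to 636 ± 105 CPM in 129 (n = 7). No neighbouring pair in this order was called, and 10 of the 28 pairs were. Cast libraries spread widest, with 3 at 84.4 to 125 CPM and 3 at 446 to 571 CPM. Sqle ran only from 16.7 ± 6.91 CPM in Cast to 31.8 ± 8.83 CPM in PWK (n = 8), and 3 of its 28 pairs were called.

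Among the sterol step and control genes described next, Sc5d, Ebp and Scap had 1 called neighbouring pair each, and Srebf2 and Insig1 had none. Sc5d had 15 of its 28 pairs called and ran from 34.5 ± 18 CPM in Cast, past WSB (55.1 ± 27.2), NOD (66.4 ± 14.4), NZO (70.5 ± 20.8), 129 (71.9 ± 17) and PWK (78.1 ± 29.8), to AJ (113 ± 39.3) and B6 (123 ± 24.8). Of its neighbouring pairs, Cast and WSB were the one that differed (adjusted p = 0.0314 in edgeR). Ebp had a narrow range, from 25.3 ± 4.55 CPM in PWK over NZO (30.1 ± 3.66), 129 (31.2 ± 3.46), AJ (35.5 ± 2), NOD (36 ± 3.58), WSB (36.5 ± 2.45) and B6 (38 ± 3.63) to 40.4 ± 10.2 CPM in Cast, and PWK and NZO differed (adjusted p = 0.0212). Srebf2 lay between 43.6 ± 6.55 CPM in Cast and 60.6 ± 7.07 CPM in NZO, with B6 (50 ± 8.05), WSB (51.5 ± 3.29), PWK (54.1 ± 7.88), 129 (54.4 ± 8.98), AJ (56.5 ± 7.22) and NOD (57.8 ± 5.92) between them and no neighbouring pair called. Scap had the smallest ratio of highest to lowest strain mean, 1.29, from 51.3 ± 4.88 CPM in NZO to 66.3 ± 3.38 CPM in WSB, yet WSB differed from PWK, its neighbour at 59.5 ± 2.99 CPM (adjusted p = 0.0108). Insig1 ran from 222 ± 120 CPM in Cast and 295 ± 114 CPM in NZO, through NOD (415 ± 78.9), PWK (415 ± 127), B6 (471 ± 92.4), 129 (554 ± 120) and AJ (615 ± 308), to 657 ± 141 CPM in WSB, with no neighbouring pair called.

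Transport and storage genes had 11 to 21 of the 28 pairs called, against 3 to 16 for synthesis genes. Stard4 had 21 of 28 pairs called and 3 levels: WSB (9.49 ± 2.95 CPM) and Cast (10.7 ± 2.33), then NOD (15.4 ± 2.99), PWK (16.1 ± 3.1) and B6 (17.8 ± 4.78), then 129 (26.9 ± 3.96), AJ (29.5 ± 4.35) and NZO (33.6 ± 5.61). The steps from Cast to NOD (adjusted p = 0.0046) and from B6 to 129 (adjusted p = 0.0056) were called and the other neighbouring pairs were not. Npc2 stood at 289 ± 76 CPM in PWK and 303 ± 90.7 CPM in Cast, a step below 129 (460 ± 66.2), AJ (465 ± 71.8), WSB (578 ± 83.7), B6 (604 ± 77.7), NZO (630 ± 157) and NOD (695 ± 172), and the pair of Cast and 129 differed (adjusted p = 0.00254). Npc1 had 1 step, from NZO (79.1 ± 11.4 CPM) to Cast (114 ± 34.4 CPM), above B6 (53.7 ± 6.89), 129 (65.2 ± 5), NOD (65.6 ± 9.85), AJ (68.3 ± 4.49), PWK (76.1 ± 6.48) and WSB (78.5 ± 14.6). For Soat1 the step was from NOD (34.6 ± 11.7 CPM) to NZO (92 ± 35.8 CPM, adjusted p = 2.6e-05), with WSB (16.4 ± 6.35), PWK (24.2 ± 10.2), 129 (24.3 ± 9.31), Cast (28.8 ± 8.1), B6 (30.9 ± 18.6) and AJ (32.6 ± 5.38) below.

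The efflux genes did not have the same order of strains. Abcg1 ran over a ratio of 6.32, from 25.8 ± 5.99 CPM in 129 over NOD (39.7 ± 5.1), PWK (49.9 ± 23.1), B6 (60.2 ± 14.7), AJ (63.3 ± 12.5) and WSB (72.9 ± 28.3) to NZO (131 ± 25.9) and Cast (163 ± 133), and the step from WSB to NZO was the one called (adjusted p = 0.005). Abca1 ran over a ratio of 1.60, from 311 ± 43.6 CPM in 129 over AJ (314 ± 42.8), PWK (339 ± 61.7), B6 (364 ± 44.5), WSB (380 ± 88), NZO (383 ± 56) and NOD (407 ± 47.1) to 499 ± 237 CPM in Cast, with no neighbouring pair called. Both means were lowest in 129 and highest in Cast. In NZO Abcg1 was called and Abca1 was not, and the difference between the genes was not tested.

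**Figure D4:**
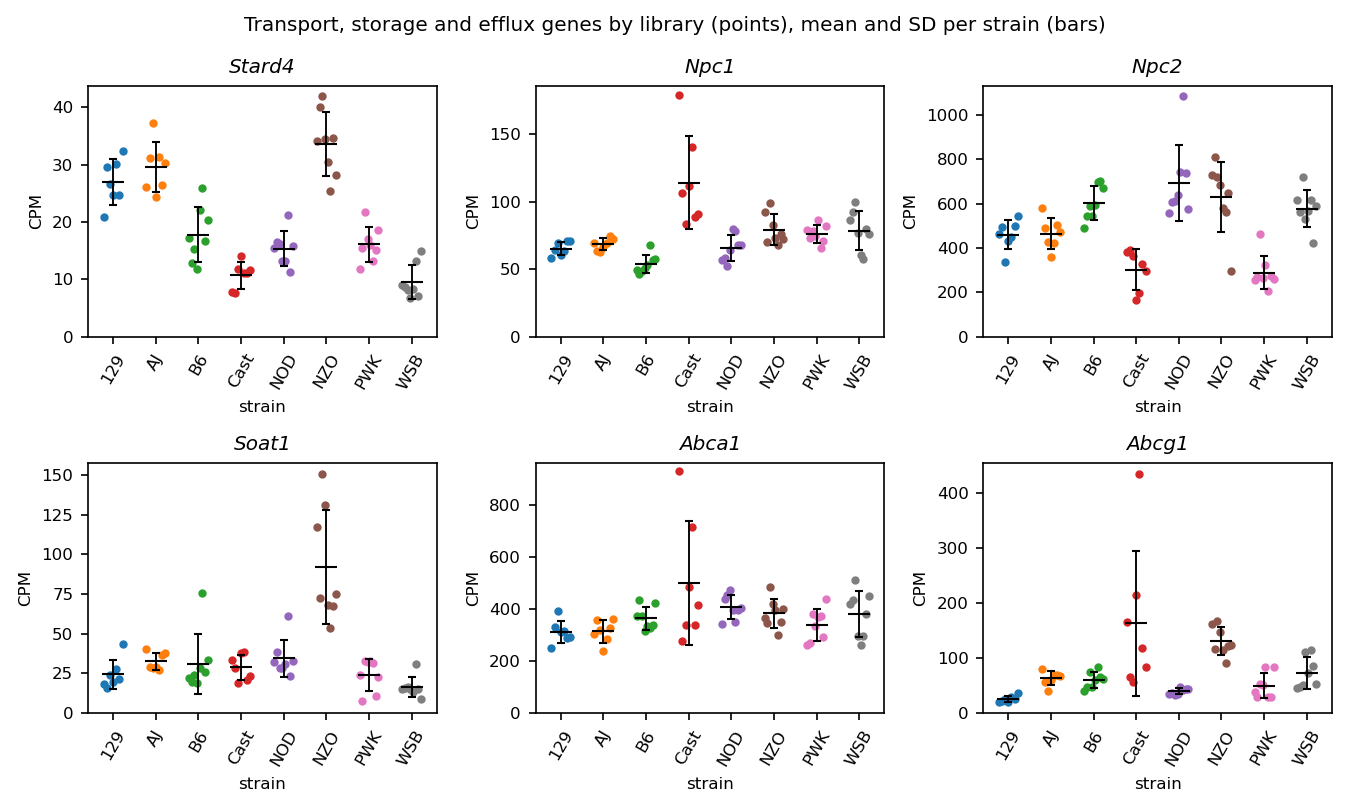
CPM (vertical axis, linear, from 0) of 6 transport, storage and efflux genes by strain, with 1 point per library and a bar for the mean and SD. Stard4 forms 3 levels of strains, Soat1 is high in NZO (53.5 to 151 CPM), and the highest Cast libraries stand at 435 CPM of Abcg1, where the next is at 215 CPM, and at 927 CPM of Abca1, where the next is at 713 CPM.

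Synthesis genes also varied together from library to library within strains. Log2 CPM was centred on each strain's mean, and the correlation of each gene with Sqle and with Insig1, both known targets of sterol control, was computed over 61 libraries. There were 53 relations in all, tested with 100000 permutations of libraries within strains (2-sided) and adjusted over all genes tested with the same anchor gene. With Sqle, 17 of 27 genes passed with a positive correlation, against 6.91% of all genes. With Insig1, 17 of 26 passed with a positive correlation, against 9.21%, and Soat1 and Abcg1 passed with a negative one, against 7.66%.

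Dhcr7 followed Sqle most closely (Pearson r = 0.890, Spearman rho = 0.862, each with permutation p = 1e-05, the smallest that 100000 permutations can give, adjusted p = 0.000639). No other gene tested had a higher r with Sqle than Dhcr7. Mvd (r = 0.889, rho = 0.885), Lss (0.868, 0.836), Cyp51 (0.843, 0.795) and Fdps (0.825, 0.822) came next among the 28, with the same p and adjusted p. Without the 2 libraries farthest from the median of Sqle these 5 values of r were 0.872, 0.885, 0.834, 0.799 and 0.779, and all 53 relations kept their sign without the 2 farthest libraries of their anchor. Sqle and Insig1 correlated with each other at r = 0.687 (rho = 0.654, permutation p = 1e-05).

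Control and efflux genes had r of −0.361 to 0.687 with Sqle. Srebf2, which encodes the transcription factor itself, had r = 0.247 with Sqle (rho = 0.192, permutation p = 0.0591, adjusted p = 0.212) and r = 0.056 with Insig1, and Scap had r = 0.218 with Sqle (rho = 0.241, permutation p = 0.112, adjusted p = 0.317). Neither passed. Insig2 had r = −0.361 with Sqle (rho = −0.358, permutation p = 0.00641, adjusted p = 0.0514), which misses the threshold. With Insig1, Abcg1 had r = −0.445 (rho = −0.391, permutation p = 0.00517, adjusted p = 0.0359) and Soat1 r = −0.323 (rho = −0.395, permutation p = 0.00733, adjusted p = 0.0455), and these r were −0.463 and −0.367 without the 2 farthest libraries. Depth, tissue makeup and other features that libraries share enter these correlations, and their part was not tested.

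**Figure D5:**
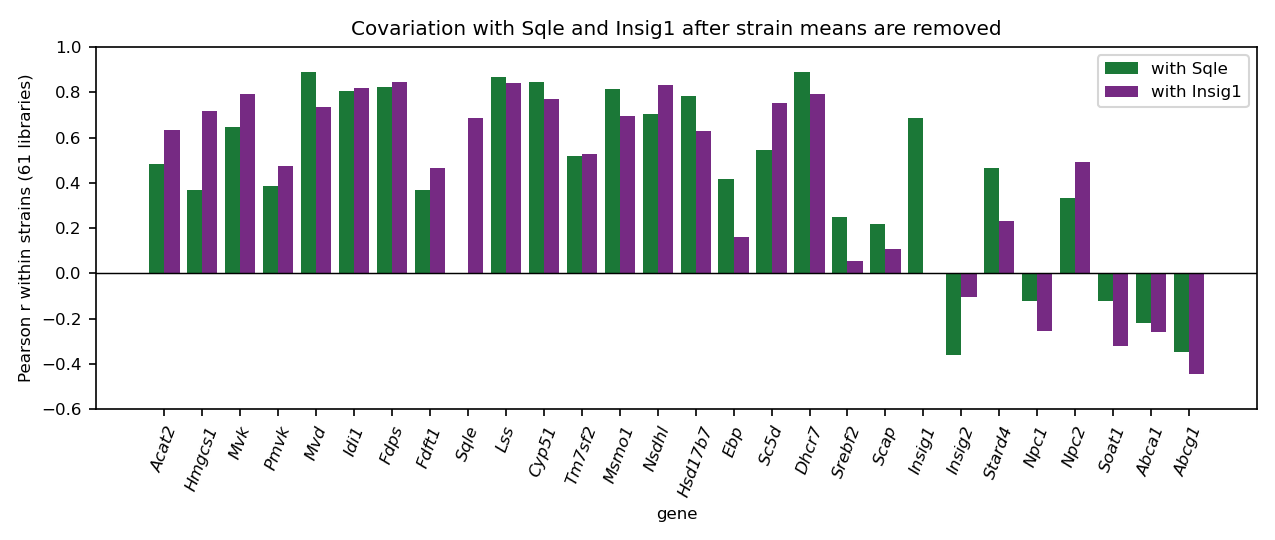
Pearson r (vertical axis, bars from 0) of each gene with Sqle (green) and Insig1 (purple) over 61 libraries after strain means are removed. Bars of enzyme genes reach 0.89 with Sqle, those of Srebf2 and Scap stay at or below 0.25, and those of Soat1, Abca1 and Abcg1 are below 0.

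Some of the variation within strains moved with Xist, the transcript that silences one X chromosome. Sex is not in the labels and was not assigned, and log2 Xist was added to the strain model as a continuous covariate. Xist ran from 0.0253 to 744 CPM. Libraries held either at least 314 CPM or at most 7.33 CPM, apart from Cast replicate 8 at 52.8 CPM. A slope per log2 unit is therefore small beside the difference between high and low libraries, which lie many log2 units apart. Beside strain, 9 of the 28 genes rose with Xist (32.1%, against 17.8% of all genes) and 2 fell (7.14%, against 19.3%). Those that rose were Acat2, Mvd, Idi1, Fdps, Fdft1, Sqle, Tm7sf2, Nsdhl and Dhcr7, with slopes of 0.03 to 0.08 log2 units per log2 unit of Xist. The steepest was Tm7sf2 (0.081 ± 0.014, SE, adjusted p = 4.96e-06 in edgeR). Abcg1 (−0.066 ± 0.014, adjusted p = 0.000155) and Srebf2 (−0.021 ± 0.005, adjusted p = 0.001) fell.

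Another 30 genes of sterol handling, on a second list, were tested in the same fit. In the F-test 29 of the 30 passed, against 89.9% of all genes, and the one that did not was Cyp27a1, the mitochondrial sterol hydroxylase gene. In Cast 13 were higher and 7 lower, against 29.6% and 26.6% of all genes, and in NZO 8 were higher and 10 lower, against 27.2% and 26.6%. Lipa, the lysosomal acid lipase that frees cholesterol from its ester, had its highest strain mean in NZO (323 CPM, log2 fold change 1.72 ± 0.13, adjusted p = 1.6e-16) and its lowest in Cast (80.9 CPM). Stard3, a late endosome cholesterol carrier, was highest in NZO too (26.8 CPM, 0.78 ± 0.08, adjusted p = 4.15e-13). For Lipa and Stard3 as well, strain and macrophage transcripts in NZO cannot be told apart. Nr1h3, which encodes the oxysterol receptor LXR alpha, was highest in Cast (131 CPM, 0.87 ± 0.08, adjusted p = 2.23e-14) and lowest in NZO (59.6 CPM, −0.43 ± 0.08, adjusted p = 1.4e-05). Lpcat3, a phospholipid remodelling gene and LXR target (shares reads), ranged from 84 CPM in NZO to 195 CPM in WSB. Rnf139, a ubiquitin ligase of the endoplasmic reticulum, had a narrow range, 26.7 CPM in AJ to 36.1 CPM in PWK.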

How the data were processed

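Adipose RNA of 61 mice was made into poly(A)-selected mRNA libraries with spike-in controls added, per the labels' protocols. The authors deposited expected counts (estimates that divide a read matching more than 1 gene) for 21169 genes on GRCm38, and 21.1% of values were not whole within 1e-06. They also deposited log2 values, made with the variance-stabilising transformation of DESeq2, per the submitters' processing notes, with no version. Aligner and counter are not given in the sources used here.

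The 28 genes and all lists were chosen with earlier results of these data known. Expected counts were rounded, filtered with filterByExpr by strain (18603 genes left), normalised by TMM and modelled by strain with edgeR 4.0.16 (R 4.3.3), using robust quasi-likelihood dispersion. Strain was tested with an F-test, in 28 pairs and with every strain set against the plain average of the other 7 strain means. Calls have a Benjamini-Hochberg adjusted p under 0.05 over all genes of a comparison, and tests were 2-sided. Gene CPM use TMM-scaled library sizes (prior count 2 before logarithms), whereas Xist and marker sums use raw totals. Percent values derive from the deposited counts. Named genes were up to 5 called in each direction per strain, the gene farthest the other way, and those that varied most between strains.

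Marker-rich libraries had over 500 CPM of liver, 300 CPM of muscle or 300 CPM of genital duct markers. All 9 liver and 7 muscle markers were found, but only 2 of 9 male duct and 3 of 5 oviduct and uterus markers. Alternatives tried were DESeq2 1.42.0, RLE size factors, no filter, a mean of at least 5 CPM, limma 3.58.1 on the deposited transformed values, a block for replicate number, Xist as a covariate and no marker-rich libraries. Chosen after seeing the data were the macrophage covariate, the fits without single libraries, the Xist slope, and adjustment of correlations over all genes. On simulated data with 200 of 18411 genes changed in NZO, the NZO comparison found 78% at a log2 change of 1 and 46% at 0.5, with 5.34% false calls. The deposited data differ from that setting, with 53.9% of genes called in NZO, so these rates may not hold for them. The smallest chi-square between libraries of a strain was 18.5 per gene, so spread between libraries exceeded counting error. The replicate numbers are not given as shared animals or days. Sex was not inferred. Some genes of this pathway are not reported here.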

Additional observations from a re-analysis of the deposited data

Results flagged for a closer look

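In 224 groups of 7 or 8 libraries (28 genes in 8 strains), the highest or lowest library was tested for a large gap to its neighbour in log2 CPM, and 18 groups (8.04%) had one, where chance gives about 1 in 20. NZO replicate 8 accounts for 6 of them, each low. It had 219 CPM of Hmgcs1 (the other 7 at 420 to 658), 16.7 CPM of Idi1 (34.8 to 54.5), 20.1 CPM of Lss (49.5 to 92.2), 28.5 CPM of Sc5d (58 to 93.9), 90.7 CPM of Insig1 (242 to 491) and 296 CPM of Npc2 (564 to 812). Beside these values, its B cell and lymph node marker sum was 129 CPM, against 8.19 to 30.0 CPM in the other NZO libraries, and the part of those cells was not tested.

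Cast had 3 such groups. Replicate 5 held 38.5 CPM of Acat2 (118 to 249 in the others) and 24.1 CPM of Fdft1 (39.2 to 52.9), and its adipocyte marker sum was the lowest of the strain. Replicate 1 held 160 CPM of Pmvk, against 20.4 to 49.3 CPM in the other Cast libraries. In B6, replicate 3 was low in Sc5d (70.3 CPM, others 106 to 145) and Insig1 (293 CPM, others 437 to 610), and replicate 6 was high in Soat1 (75.5 CPM, others 18.8 to 33.2), beside the highest macrophage marker sum outside NZO (1720 CPM).

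NOD replicate 6 was high in Dhcr7 (53.4 CPM, others 20.1 to 31.4) and Npc2 (1080 CPM, others 558 to 741). WSB replicate 9 was high in Mvd (19.5 CPM, others 5.4 to 9.89), and 129 replicate 2 in Idi1 (101 CPM, others 38.4 to 53.9). Scap was high in PWK replicate 2 (66.3 CPM, others 57 to 60.3) and low in WSB replicate 7 (58.5 CPM, others 65.8 to 68.9).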

How the results depend on the processing

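Of 57 named pairs of gene and strain, 45 kept their direction and call in every alternative listed beforehand, and 31 kept them in every alternative run, the later ones included. All 57 did so with RLE size factors, without a filter, with a mean of at least 5 CPM, with DESeq2, with Xist and with the replicate block, 53 with limma on the variance-stabilised values, 45 without the marker-rich libraries and 41 with the macrophage covariate. The number of genes called in AJ went from 9 to 5 with limma on the variance-stabilised values, to 4 without marker-rich libraries, and to between 3 (without AJ replicate 3) and 10 (without Cast replicate 1) with single libraries left out. With the macrophage covariate 8 genes were called in NOD in place of 5 (29.9% of all genes in place of 26.5%), and 6 in NZO in place of 17 (27.6% in place of 53.9%). Among the named pairs, that covariate turned the direction of Soat1 (−0.089), Abcg1 (−0.27), Acat2 (0.34), Tm7sf2 (0.16), Nsdhl (0.89) and Insig1 (0.35) in NZO and of Acat2 in WSB (−0.22), and none of these 7 values passed. Srebf2 in NZO, outside those pairs, also turned and passed in both directions (0.21 and −0.26). In the replicate block fit 27 of the 28 genes passed the F-test, all but Sqle (89.1% of all genes passed), and 20 were called in Cast (55.9%), 17 in NZO (53.5%), 14 in WSB (50%) and 9 in AJ (23.4%). Sqle also missed the F-test without the marker-rich libraries, with the macrophage covariate and without Cast replicate 1, replicate 8 or replicates 5 and 6 (adjusted p = 0.0577 to 0.159 in edgeR). Acat2 (adjusted p = 0.0869) and Pmvk (0.0832) missed it with the macrophage covariate too, where 87% of all genes passed. Same-numbered libraries of different strains correlated at a median of r = 0.11 (−0.44 to 0.56 over 186 pairs) against −0.02 for other pairs, with 51.6% and 29% of pairs over 0.1, and 21 of 61 libraries correlated best with their own number. Since the labels give no shared animal or day and not every same-numbered pair was over 0.1, the number was not taken as pairing, though same-numbered libraries were more alike by these values. Replicates 1 to 4 of 129, B6, NOD and NZO held 418 to 744 CPM of Xist, and their later numbers at most 7.33 CPM. In those strains the replicate block and the Xist covariate overlap. In Cast, replicates 1 to 3 held 398 to 618 CPM of Xist, replicates 5 to 7 at most 0.807 CPM and replicate 8 52.8 CPM, so they overlap there too. Leaving out Cast replicates 5 and 6 thus also removed libraries low in Xist. The libraries of AJ, PWK and WSB were not divided by number in this way. The part of Xist in the likeness was not tested. Of 53 within-strain relations, 41 passed when adjusted over the 53, 36 over all genes, 40 with Xist and 36 without marker-rich libraries. The cause of these changes was not tested.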
